A study of Mus musculus with 10 samples.

Results

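The hyaluronan genes described here are the synthases Has1, Has2 and Has3, the hyaluronidases Hyal1 and Hyal2, the receptor Cd44 and the matrix proteins Tnfaip6 and Ptx3. The cells were mouse germinal vesicle oocytes, a stage in which the fully grown oocyte is held in prophase of its first meiotic division. One group held 5 arrays of wild-type oocytes and the other 5 arrays of CTCF-depleted oocytes, CTCF being the insulator-binding zinc finger protein that shapes chromosome loops. The labels named no strain, age, depletion method or number of oocytes per sample, and no agent given to either group. They did not say whether the samples came from separate animals, so p-values cover only sample-to-sample spread, possibly technical. The genes were chosen by gene symbol, and the set was proposed from measured values of this same contrast, in which Has3 had fallen strongly in depleted oocytes. The differences of the 8 genes between groups are therefore given as a description with no p-value. Counts of called genes among them are printed beside the share over all genes, which was taken under the main processing only. A probe set, a group of array probes for 1 transcript, was used where the platform annotation gave it a single gene symbol. By this rule 7 of the 8 genes had a probe set, 12 probe sets in all, of 18194 genes on the platform. Hyal1 shared its 2 probe sets with the gene Naa80 and is not described further.

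Hyaluronan is a long sugar polymer that the synthases make at the plasma membrane from UDP-glucuronic acid and UDP-N-acetylglucosamine and push out of the cell. Hyaluronidases cut it, CD44 binds it at the cell surface, and TNFAIP6 and PTX3 crosslink it into a stable matrix. In the mouse ovary this matrix is best known from cumulus expansion before ovulation, when the cumulus cells around the oocyte switch on Has2, Tnfaip6, Ptx3 and Ptgs2 in response to factors secreted by the oocyte, such as GDF9 and BMP15, and to the ovulatory signal. The germinal vesicle oocyte is sampled before that step.

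Each array gave 1 linear signal per probe set, scaled by the authors to a common mean. No detection calls were used, so the array's own 27 Bacillus control probe sets, for transcripts that mouse RNA lacks, were used, and the highest of them served as the control level of each array. It ran from 4.75 to 10.9 over the arrays, and each array had from 49.4% to 62.9% of its probe sets higher than that. Precision here is limited by the number of arrays. The 12 oocyte markers, such as the egg coat genes Zp1 to Zp3, were above the control level on all 10 arrays. Between groups 0 were called, beside 16.4% of all tested genes (limma, 2 with an unadjusted p under 0.05). Ctcf itself averaged 1001 ± 76.0 (SD, n = 5) in wild type and 36.3 ± 33.7 in depleted oocytes on its brighter probe set.

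Has3 and Hyal2 were the only 2 of the 7 measured genes above the control level on every array. Has3 was far dimmer in depleted oocytes and the 2 groups overlapped for Hyal2. The probe sets of Has1, Has2, Cd44, Tnfaip6 and Ptx3 mostly lay near or under the control level in both groups. Their highest readings were 24.8 for Has1 on depleted replicate 3 and 18.3 for Has2 on wild-type replicate 4. The control levels of those arrays were 10.9 and 8.56. With the second highest control as the control level, a Has2 probe set was also above it on all 5 wild-type arrays. The plot of every probe set by array shows this division.

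**Figure D1:**
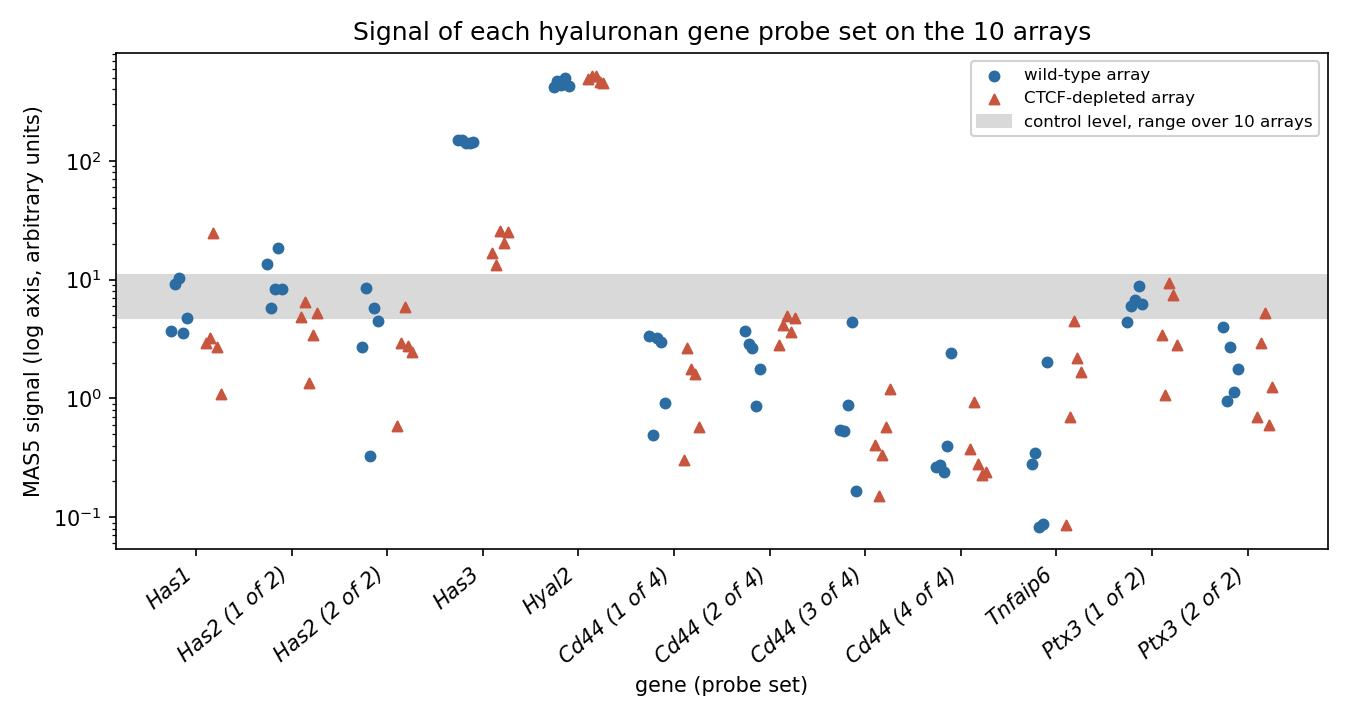
Signal of the 12 probe sets on the 10 arrays, on a log axis, with circles for wild-type and triangles for CTCF-depleted arrays; the grey band is the range of the control level, 4.75 to 10.9. Has3 and Hyal2 lie above the band on every array, and Has3 is the only probe set whose groups do not overlap.

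Among the synthases, Has3 is known for making shorter hyaluronan chains than Has2. Its single probe set, 1420589_at, read 149.7, 150.05, 140.4, 141.7 and 143.3 on wild-type replicates 1 to 5. On depleted replicates 1 to 5 it read 16.9, 13.3, 25.9, 20.3 and 24.98. The wild-type arrays lay close together, with a coefficient of variation of 3.12%, and every depleted array was far below the lowest of them. The mean was 145 ± 4.53 (SD, n = 5) in wild type and 20.3 ± 5.34 in depleted oocytes, 14.0% of wild type or 7.16-fold lower. The log2 fold change, depleted over wild type and fitted with limma on log2(signal + 2.47), was -2.73 ± 0.15 (SE). The offset pulls this value towards 0, since with an offset of 32 it was -1.77. Depleted oocytes still gave a Has3 signal above the control level on 5 of 5 arrays.

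Relative to its lower mean, the residual Has3 signal varied more among the depleted arrays, with a coefficient of variation of 26.3%. The SD itself was 5.34, against 4.53 in wild type. Depleted replicate 5 kept the most Ctcf, with signals of 61.1 and 95.8 on its probe sets, and read 24.98 for Has3. Depleted replicate 3 read 25.9 for Has3 with Ctcf signals of 11.4 and 22.3. The lowest Has3 signal, 13.3, was on depleted replicate 2, where the Ctcf probe sets read 7.07 and 17.2. The control level of that array was 8.18, so the lower Ctcf reading was under it. Depleted replicates 1 and 4 read 16.9 and 20.3 for Has3. Their Ctcf signals were 14.2 and 29.3 on replicate 1, and 9.94 and 16.7 on replicate 4. A set of 5 arrays is too small for a correlation, so a link between residual Ctcf and Has3 was not tested.

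Has2 makes the hyaluronan of cumulus expansion. Its brighter probe set, 1418678_at, read 13.4, 5.72, 8.39, 18.3 and 8.30 in wild type and 4.86, 6.51, 1.34, 3.40 and 5.25 in depleted oocytes. It was above the control level on 3 wild-type arrays and 1 depleted array, and the groups overlapped through wild-type replicate 2 and depleted replicate 2. The log2 fold change was -0.96 ± 0.31 (SE), at signals so low that its size depends on the offset: it was -0.23 with an offset of 32. Its other probe set was above the control level only on wild-type replicate 2, at 8.52, and gave -0.27 ± 0.36.

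Has1, the synthase least known in the ovary, gave 3.73, 9.17, 10.3, 3.57 and 4.75 in wild type. In depleted oocytes it gave 2.92, 3.24, 24.8, 2.73 and 1.09. Apart from the single reading of 24.8 on depleted replicate 3, the depleted readings lay under every wild-type reading, all of them near or under the control level. The probe set was above the control level on 2 wild-type arrays and 1 depleted array. The log2 fold change was -0.27 ± 0.46 (SE), and it depended on single arrays: it was -0.77 ± 0.31 without depleted replicate 3 and -0.036 ± 0.46 without depleted replicate 5. Without wild-type replicates 2 or 3 it was -0.15 and -0.12, and without depleted replicate 4 it was -0.17.

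Hyal2, an enzyme anchored at the cell surface that cuts long hyaluronan chains, was well above the control level in both groups. It read 420.4, 468.6, 438.3, 495.5 and 425.0 in wild type. In depleted oocytes it read 488.3, 519.6, 524.0, 461.5 and 452.3. The groups overlapped, and the means were 450 ± 31.8 and 489 ± 32.6 (SD, n = 5). The log2 fold change was 0.12 ± 0.07 (SE). The plot of 3 genes on linear axes sets this beside Has3 and Has2.

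**Figure D2:**
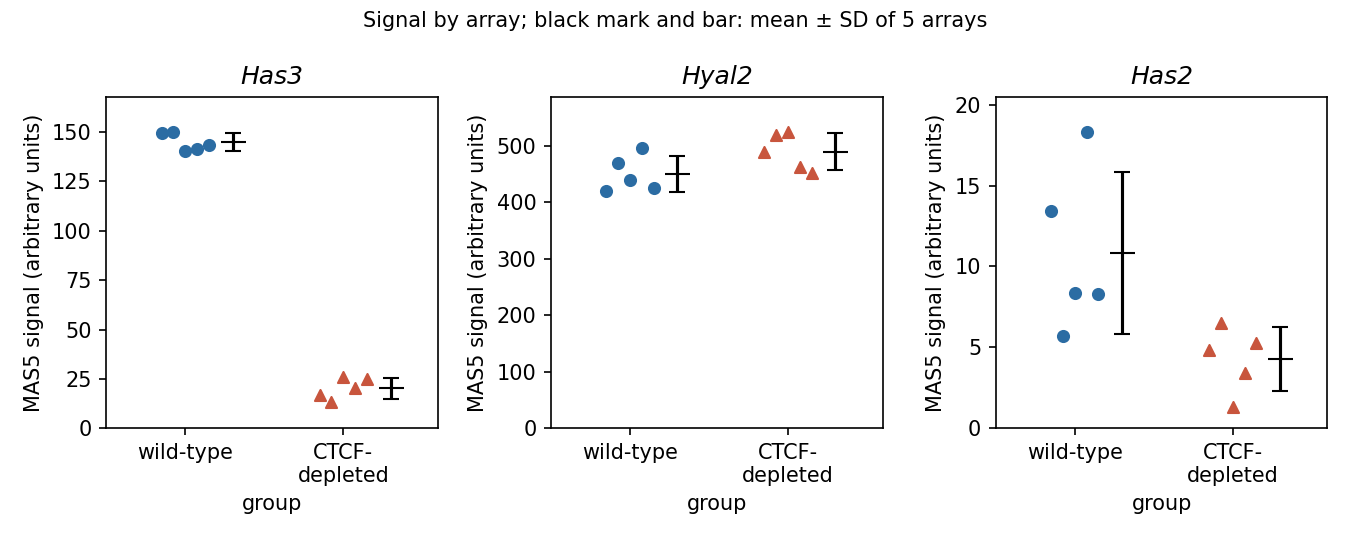
Signal of Has3, Hyal2 and the brighter Has2 probe set on 5 wild-type and 5 CTCF-depleted arrays, each point an array and the black mark and bar the mean ± SD; each panel has its own axis, starting at 0. Has3 runs from 140.4 to 150.05 in wild type and from 13.3 to 25.9 in depleted oocytes, whereas the Hyal2 and Has2 groups overlap.

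The receptor and matrix genes gave hardly any signal in either group. Cd44 was above the control level only on depleted replicate 5 and with 1 of its 4 probe sets, and there only just, with 4.76 against 4.75. Tnfaip6, which transfers heavy chains of the inter-alpha-trypsin inhibitor onto hyaluronan, read at most 2.01 in wild type and 4.48 in depleted oocytes and was above the control level on no array. Ptx3, a pentraxin that links those heavy chains, was above it on 1 array of each group with its brighter probe set, with 8.92 on wild-type replicate 4 and 7.47 on depleted replicate 4, and on none with the other. Its highest reading, 9.40 on depleted replicate 3, was under the control level of that array. The groups overlapped on all of these probe sets. No fold change is given for Cd44 or Tnfaip6, since both groups lay at or under the control level.

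Only 4 of the 7 genes, Has3, Has2, Hyal2 and Ptx3, had a probe set bright enough on average to enter the test across all genes. Of these 4, 1 was called at a Benjamini-Hochberg adjusted p under 0.05 and it was Has3. Over all 13811 tested genes 16.4% were called, 7.26% higher and 9.12% lower in depleted oocytes. Groups that did not overlap were found for 14.2% of tested genes and for 1 of these 4, Has3. On the untested probe sets of the 7 genes the groups all overlapped. Since the set was proposed with this contrast known, these counts carry no weight of their own.

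Wild-type replicate 2 stood apart in genes of the cells that make the cumulus matrix. The summed signal of 13 granulosa and cumulus markers was 2734 on that array and 971 to 1097 on the other 4 wild-type arrays, against 963 to 1342 in depleted oocytes. The gap junction gene Gja1 read 1017 there and 154 to 210 on the other wild-type arrays, the inhibin subunit genes Inha and Inhbb 536 and 293. The mean marker sum was 1387 ± 754 in wild type and 1137 ± 173 in depleted oocytes (SD, n = 5), a difference that did not pass a two-sided exact permutation test (p = 0.802, smallest possible 0.00794). Without that array depleted oocytes were higher by 86.4 (exact permutation p = 0.373). The marker Nr5a2 alone averaged 350 in wild type and 433 in depleted oocytes, a gap about as large as that difference. The sum without Nr5a2 was not tested. All 13 markers were above the control level on some array, 10 of them on all wild-type and 11 on all depleted arrays. In such bulk samples fewer cumulus cells and less RNA per cumulus cell cannot be told apart. On wild-type replicate 2 the Has3 signal was 150.05, close to that on the other wild-type arrays, Tnfaip6 read 0.349 and the Ptx3 probe sets 6.03 and 0.942. The second Has2 probe set had its highest reading, 8.52, on this array, and the part of cumulus RNA in that reading was not tested. Without the array the Has3 log2 fold change was -2.72.

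Within the marker list, 2 of 13 genes were called, both higher in depleted oocytes, beside 16.4% of all tested genes. Of the 11 others, 9 had a log2 fold change under 0, and the median of the list was -0.10. The genes named from it were chosen after their values were seen. Fshr, the receptor for follicle-stimulating hormone, rose from 23.2 ± 6.69 to 47.8 ± 5.75 (SD, n = 5; limma, Benjamini-Hochberg adjusted p = 0.00107). Nr5a2, a nuclear receptor of granulosa cells, rose from 350 ± 26.9 to 433 ± 24.6 (adjusted p = 0.00637). Kitl, the gene for KIT ligand, averaged 84.0 ± 13.3 and 61.5 ± 13.5 with groups that did not overlap, but was not called (adjusted p = 0.0628), and Gja1 had a log2 fold change of -0.72 ± 0.40 (SE). Neither called gene followed the marker sum, since on wild-type replicate 2 Fshr had its lowest reading, 13.4, and Nr5a2 read 357. Of the 9 measured markers of theca and stroma and the 9 of blood, immune and endothelial cells, 2 and 3 were above the control level on all wild-type arrays. The counts on all depleted arrays were also 2 and 3, but not for the same genes of theca and stroma: Dcn and Acta2 in wild type, Star and Acta2 in depleted oocytes.

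The other genes of the pathway came from 4 lists drawn from general knowledge, of which 54 of 56 genes were on the array. The 2 others were not analysed here. Of the 39 genes bright enough to be tested, 1 was called higher and 3 lower, or 10.3% against 16.4% of all genes, and their median log2 fold change was -0.056 against -0.017 over all genes. The plot of all 39 log2 fold changes shows them by list.

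**Figure D3:**
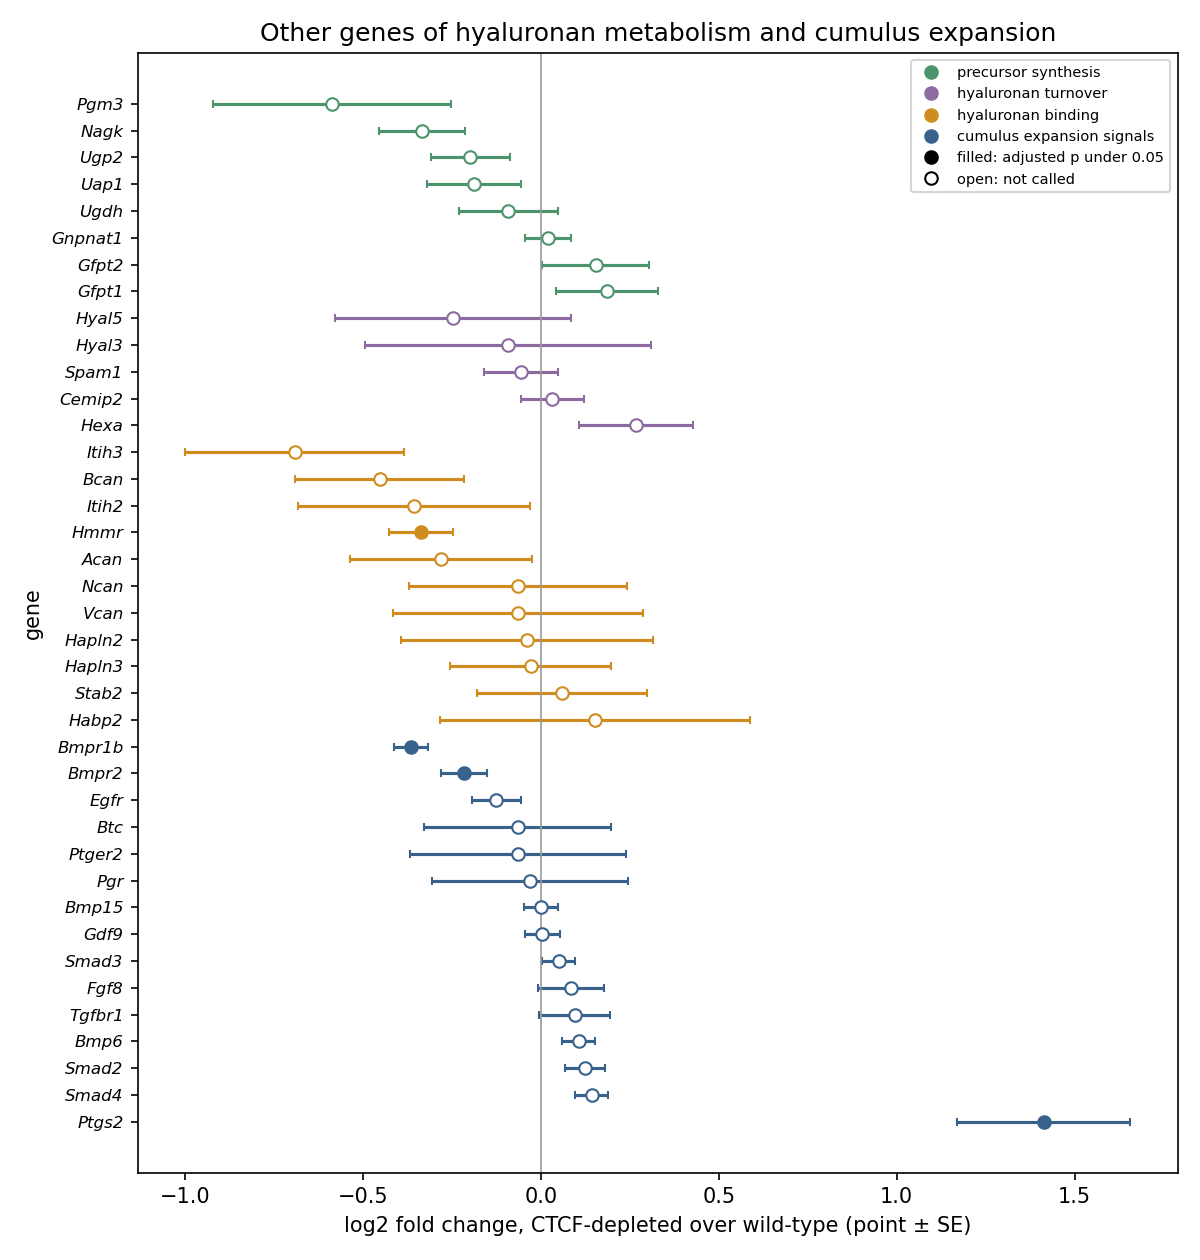
Log2 fold change, CTCF-depleted over wild type, ± SE for the 39 tested genes of 4 lists, with filled points for genes at an adjusted p under 0.05. Ptgs2, whose plotted value is no measured fold because its wild-type signal was under the control level, is called higher, Bmpr1b, Bmpr2 and Hmmr are called lower, and no gene of precursor synthesis or turnover is called.

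Genes that make the precursors of hyaluronan mostly gave a clear signal and no call. Of 8 genes, 7 were above the control level on all 10 arrays. In the test 0 were called, beside 16.4% of all tested genes (limma, 1 with an unadjusted p under 0.05). Ugdh, which makes UDP-glucuronic acid, read 67.0 ± 9.15 in wild type and 63.3 ± 13.1 in depleted oocytes (SD, n = 5), and its log2 fold change was -0.091 ± 0.14 (SE). Gfpt1, the entry enzyme of the hexosamine pathway, had 0.19 ± 0.14 on its brightest probe set and -0.51 to 0.08 on its 5 others. Nagk, which recycles N-acetylglucosamine, had -0.33 ± 0.12 on its brightest and 0.21 on its other probe set.

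The turnover list gave no call either. Of its 9 measured genes 5 were tested. Among these 0 were called, beside 16.4% of all tested genes (limma, 0 with an unadjusted p under 0.05). Spam1, best known as the hyaluronidase of the sperm surface, was above the control level on all arrays, with 91.3 ± 9.84 in wild type and 87.7 ± 9.68 in depleted oocytes. Cemip2, described as a hyaluronan-degrading protein of the cell surface, read 208 ± 10.1 and 215 ± 28.5. Other hyaluronidases such as Hyal3 and Hyal5 lay near the control level in both groups.

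Among hyaluronan-binding genes, 11 of 20 were tested and 1 was called, lower in depleted oocytes, beside 16.4% of all tested genes. Hmmr, which encodes a hyaluronan receptor that also acts at the spindle, read 92.1, 90.3, 80.7, 92.5 and 85.3 in wild type on its brightest probe set. In depleted oocytes it read 69.8, 68.8, 69.3, 73.0 and 65.6. The groups did not overlap and it fell 1.27-fold (log2 fold change -0.34 ± 0.09, SE; limma, Benjamini-Hochberg adjusted p = 0.0192). Its 4 dimmer probe sets gave log2 fold changes from -0.10 to 0.49, and the mean over its probe sets gave 0.017 (adjusted p = 0.957). It was also not called with each array centred on its median (adjusted p = 0.127). The link protein genes Hapln1 and Hapln4, and Itih1, Itih4, Itih5 and Ambp of the inter-alpha-trypsin inhibitor family, were above the control level on no array. Of the same family, Itih2 was above it on 3 wild-type and 2 depleted arrays. Itih3 was above it on 5 wild-type arrays and 1 depleted array, with a log2 fold change of -0.69 ± 0.31 (SE) that was not called (adjusted p = 0.167) except without depleted replicate 2 (adjusted p = 0.0321).

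Of the signals of cumulus expansion, 15 of 17 measured genes were tested. Of these, 1 was called higher and 2 lower, beside 16.4% of all tested genes called. The oocyte's own ligands were bright and gave no call: Gdf9 read 9013 ± 578 in wild type and 9046 ± 600 in depleted oocytes (SD, n = 5), and Bmp15 read 1584 ± 79.5 and 1582 ± 56.1. Their log2 fold changes were 0.0048 ± 0.050 and -0.00051 ± 0.048 (SE). Gdf9 had the highest signal of all probe sets on 5 of 10 arrays, and whether it was saturated there was not tested.

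Both genes called lower encode receptors of the BMP family. Bmpr1b, a type I receptor of the BMP family, read 1489, 1640, 1563, 1585 and 1638 in wild type. In depleted oocytes it read 1218, 1294, 1214, 1159 and 1261, below every wild-type array. It fell 1.29-fold (log2 fold change -0.36 ± 0.05, SE; limma, Benjamini-Hochberg adjusted p = 5.79e-05), and its other 2 probe sets gave -0.26 and -0.31. Bmpr2, the type II receptor for GDF9 and BMP15, ran from 1594 to 1783 in wild type and from 1259 to 1655 in depleted oocytes, with overlapping groups. It fell by 0.22 ± 0.06 on the log2 scale (adjusted p = 0.0354), but it was called under only 12 of 23 alternatives, and not without wild-type replicates 2, 3 or 4 or depleted replicates 1, 4 or 5 (adjusted p up to 0.263 over all alternatives).

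Ptgs2, the cyclooxygenase that cumulus cells switch on during expansion, rose. In wild type it read 6.82, 3.69, 2.75, 3.55 and 3.74, under the control level on every array. In depleted oocytes it read 20.7, 12.5, 12.8, 17.2 and 11.9, above the control level on every array. Depleted oocytes were at least 1.85-fold higher for it, comparing their mean log2 signal with the wild-type control level, and its measured means were 4.11 ± 1.57 and 15.02 ± 3.81 (SD, n = 5; limma, Benjamini-Hochberg adjusted p = 8.09e-04). The array with the most cumulus marker signal, wild-type replicate 2, read 3.69, and the part of other cells in this rise was not tested. Adamts1 and Ereg, further genes of the expanding cumulus, were above the control level on no array.

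Has3 and Ctcf lie on the same chromosome, 8, with 33 protein-coding genes between them in the RefSeq annotation of GRCm38.p6. Of these, 29 were tested and 4 were called, 2 higher and 2 lower, or 13.8% against 16.4% of all tested genes. The 5 nearest tested genes on each side of Has3 were set beside it, a choice made after seeing the data. Of these 10, 1 was called: Zfp90, a zinc finger gene, fell from 194 ± 18.5 to 144 ± 25.1 (SD, n = 5; limma, Benjamini-Hochberg adjusted p = 0.0107), with overlapping groups. The adjacent genes Tango6 and Chtf8 had log2 fold changes of -0.77 ± 0.33 and 0.044 ± 0.19 (SE), neither called, Tango6 averaging just 11.8 in wild-type oocytes. Cdh1, the E-cadherin gene of the oocyte surface, had -0.015 ± 0.048. Chtf8 and Smpd3 were also dim, averaging 14.6 and 13.4 in wild type. Tango6, Chtf8 and Smpd3 were too near the control level to show a fall as large as that of Has3. The plot in chromosomal order shows no such fall for the brighter neighbours.

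**Figure D4:**
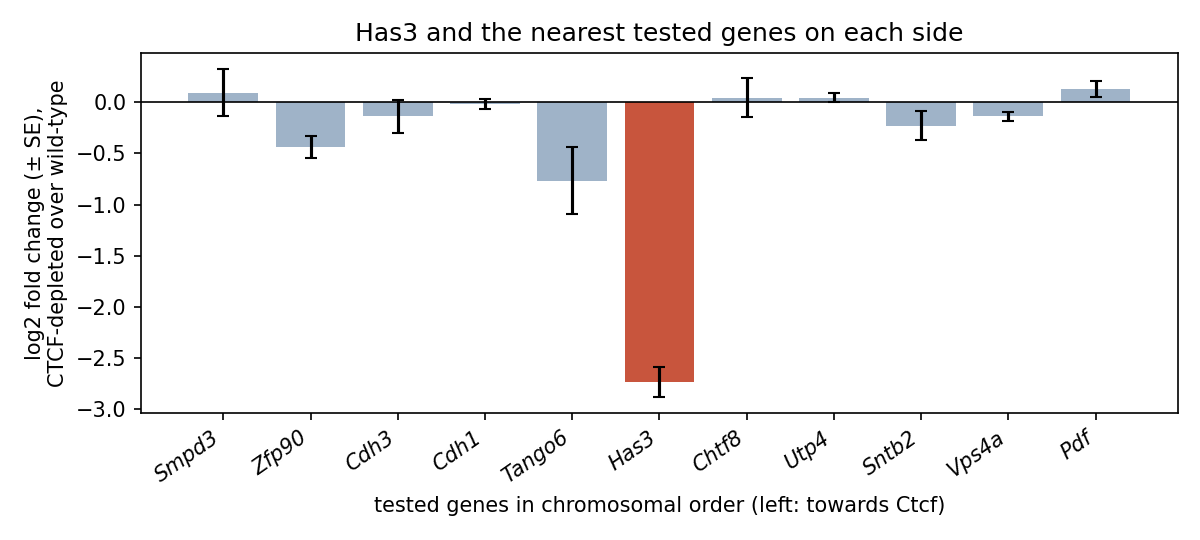
Log2 fold change, CTCF-depleted over wild type, ± SE for Has3 and the 5 nearest tested genes on each side in chromosomal order, with Ctcf towards the left. Has3 is at -2.73, and the 10 neighbours lie between -0.77 and 0.13.

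Across the arrays, the 5 genes whose log2 signal was most like that of Has3 were Plxna2, Mtres1, Osmr, Sat1 and Cenpk, with Pearson correlations from 0.989 to 0.993 over 10 arrays. All 5, like Has3, were lower in depleted oocytes, so the arrays fall into the 2 groups for each of them. Plxna2, a semaphorin receptor, averaged 238 in wild type and 58.9 in depleted oocytes, and Sat1, which acetylates polyamines, 64.0 and 10.7. With the group means taken out, the correlations of these 5 genes with Has3 were 0.63 to 0.83. The genes were picked on the same arrays, so that choice can raise these values. The 5 genes most like Has3 on that measure were Lgr5, 0610038B21Rik, Palb2, 4922502B01Rik and Disp3, at 0.93 to 0.97, and none was called in the comparison of groups. Has3 varied little among wild-type arrays (coefficient of variation 3.12%, against 26.3% in depleted). Values with the group means taken out thus rest mainly on the 5 depleted arrays, too few to read a correlation from. Lgr5, 4922502B01Rik and Disp3 averaged 6.91, 6.84 and 7.87 in depleted oocytes, within the range of the control level. Each set of 5 genes holds the highest of 13811 values over 10 arrays and is given as a description.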

How the data were processed

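Expression was measured on 10 single-colour Affymetrix-type arrays, 5 per group as the sample labels assign them. The authors deposited 1 linear signal intensity per probe set, for which the submitters' processing notes name MAS5, and scaled so that every array has the same trimmed mean of 150.001 (2% trimmed at each end). The software version and genome build are not given in the sources used here.

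Of 45101 probe sets, 64 controls were left out and 34945 carried 1 gene symbol in the platform annotation (932 several, 9160 none). From the deposited intensities log2(signal + 2.47) was computed, the offset being their 25th percentile, and probe sets with a mean under the 40th percentile (signal 5.13) were left out. The remaining 27022 were compared with limma 3.58.1 in R 4.3.3 (lmFit, eBayes with trend) and Benjamini-Hochberg adjustment, a gene being its brightest probe set (13811 genes). The fit was tested on simulated data with independent normal noise for each probe set. Effects shared by an array were not simulated, and no result here rests on that test. The members and all gene lists were chosen with earlier results of these data known. Named by rule were the members, Ctcf, Gdf9, Bmp15, called genes of the pathway lists and the 5 genes most like Has3 on each measure. Other genes were chosen after their values were seen. Alternatives covered offset, filter, scaling, model, probe set choice, control level and single replicates left out. Replicates with the same number did not deviate together (correlations 0.00243 to 0.0506), so the groups were not paired.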

Additional observations from a re-analysis of the deposited data

Results flagged for a closer look

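In 5 of 36 sets of 5 replicates, 1 reading lay far from the other 4 (Dixon's ratio above 0.71). The sets were those of the members, Ctcf and the called pathway genes in each group. Independent normal readings would give about 1 in 20. The sets share the same 10 arrays and the flagged ones are of dim probe sets, so an excess over that rate cannot be read. Has1 read 24.8 on depleted replicate 3 and 1.09 to 3.24 on the other depleted arrays. A Cd44 probe set, 1443265_at, read 4.36 on wild-type replicate 4 and 0.167 to 0.872 on the others. Another, 1452483_a_at, read 2.43 on wild-type replicate 5, against 0.241 to 0.4004 on the others, and 0.926 on depleted replicate 2, against 0.226 to 0.371. Tnfaip6 read 2.01 on wild-type replicate 5 and 0.0828 to 0.349 on the others. The Has1 reading was above the control level of its array, and the Cd44 and Tnfaip6 readings were under it. Has3 and Hyal2 had no such reading. Ctcf was not flagged on this scale either. Depleted replicate 5 read 61.1 and 95.8 on its probe sets, against 7.07 to 14.2 and 16.7 to 29.3 on the other depleted arrays.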

How the results depend on the processing

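The Has3 log2 fold change was -2.16 with an offset of 16 and -1.77 with one of 32, since a larger offset shrinks the changes of dim genes, and -2.82 to -2.61 with single replicates left out. The share of all tested genes called, 16.4%, was taken under the main processing only. The counts of calls under the alternatives therefore have no share beside them, and whether they differ from it was not tested. Members called lower numbered 2, Has3 and Has2, under array weights, the 3-prime to 5-prime ratio as covariate and the mean over probe sets. With single replicates left out they numbered 1 to 2 (2 without wild-type replicate 2 or depleted replicate 2). Pathway genes called higher numbered 2 with arrays centred on their median and with array weights, the second being Smad4, and 1 to 2 with single replicates left out. With the filter at the 60th percentile the number stayed at 1, but the gene was Smad4. Ptgs2 was left out by that filter and so was not tested there. Those called lower numbered 1 with median centring and at an adjusted p under 0.01, and 2 to 4 with single replicates left out. The causes were not tested. Against the median Bacillus control, 6 member probe sets were above it on all wild-type and 4 on all depleted arrays, against 2 and 2. With the replicate block the Has3 value was -2.73 and the counts of calls stayed at 1 member, 1 pathway gene higher and 3 lower. The marker sum difference, -250.3, ran from -354 to 86.4 with single replicates left out. Near the control level neither a level nor a change can be read from these arrays.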
